A study of Homo sapiens with 9 samples.

Results

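Prostate surface and secreted antigens are proteins that prostate epithelium displays on its membrane or releases into its secretions, and several of them are used to image or target prostate cancer. The set described here is a list of gene names, drawn up with earlier results of these data known although no measured value enters its rule, and holds 8 of the 28216 genes of the count table. FOLH1, SLC45A3, TRPM8, TMEFF2, PSCA and CD276 are the 6 surface antigens, and ACPP (named ACP3 in current annotation) and MSMB are the 2 secreted ones.

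The RNA came from 2 established human cell lines grown from prostate cancer metastases, LNCaP, which responds to androgen, and PC3, which is regarded as androgen-insensitive. There were 9 libraries in 3 groups of 3. The first group, PC3, was untreated. The LNCaP cells (clone FCG) were held in phenol red-free medium with charcoal-stripped serum, which lowers steroid content, and then received either 10 nM dihydrotestosterone (DHT) or 0.01% ethanol as vehicle for 48 h. The labels name DHT as the agent, whereas the main text of the study names the synthetic androgen R1881, so the treated group is called androgen-treated LNCaP below. PC3 cells were grown in a different medium with unstripped serum, so that cell line, medium and serum cannot be told apart in any comparison of PC3 with LNCaP. Each line was a single line in culture, and the labels do not say that the replicates were separate cultures, so p-values measure the spread between these libraries, which may be technical.

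Between 17397706 and 25640325 deduplicated reads per library were counted on genes, with 17397706 to 18674795 in the vehicle group, the least deeply sequenced. A count of 0 allowed up to 0.117 to 0.172 CPM (counts scaled to the library's total), taking 3 counts as the limit and counting error only. KLK3, the secreted protease PSA and a standard androgen target, averaged 0.319 CPM in PC3, 563 in vehicle-treated and 4261 CPM in androgen-treated LNCaP, in the order that the labels imply. Of 7 luminal epithelial markers, 7 passed 3 CPM in every LNCaP library and 6 in every PC3 library, KLK3 being the exception. Their summed level was 939 to 1264 CPM in PC3, 2540 to 2759 CPM in vehicle-treated and 9594 to 10144 CPM in androgen-treated LNCaP. The 4 basal markers summed to 24.8 to 32.2 CPM in PC3, where KRT15 alone passed 3 CPM, and to at most 2.26 CPM in LNCaP. Of 8 markers of other cells, the T cell marker CD3E and the neuroendocrine marker CHGA were at 0 in every library. COL1A1 passed 3 CPM in every library, CD68 in every PC3 and androgen-treated library, and VWF in every LNCaP library. CD68 averaged 33.1 CPM in PC3, 1.83 with vehicle and 18.7 with androgen. VWF averaged 0.0564, 16.7 and 7.51 CPM in the same order, and COL1A1 38.5, 21.8 and 13.4 CPM. The summed level of all 8 was 71.0 to 77.7 CPM in PC3 and 36.2 to 42.0 CPM in LNCaP, where CD68 rose and VWF and COL1A1 fell with androgen. The part of these marker differences in the results below was not tested.

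Androgen acts through a nuclear receptor that, once bound by ligand, enters the nucleus and binds DNA near the genes it controls, among them many genes of the secretory luminal cell. FOLH1 encodes prostate-specific membrane antigen (PSMA), a folate- and glutamate-cleaving carboxypeptidase, and is known to be restrained rather than induced by androgen in several prostate cancer lines. SLC45A3 (prostein) and ACPP (prostatic acid phosphatase) are, by contrast, classical products of differentiated, androgen-responsive prostate epithelium.

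Promoter sequence is shown for 3 of the members whose transcripts rose with androgen, so that the start regions can be set beside the responses below. RefSeq (GRCh38.p14) gave a promoter for 5 of the 8 members, SLC45A3, TRPM8, TMEFF2, CD276 and ACPP. The 250 bases before each start are given from 5′ to 3′ on the strand of the gene, in lower case, with a TATAAA motif in capitals.
SLC45A3, chr1:205680510-205680759, minus strand: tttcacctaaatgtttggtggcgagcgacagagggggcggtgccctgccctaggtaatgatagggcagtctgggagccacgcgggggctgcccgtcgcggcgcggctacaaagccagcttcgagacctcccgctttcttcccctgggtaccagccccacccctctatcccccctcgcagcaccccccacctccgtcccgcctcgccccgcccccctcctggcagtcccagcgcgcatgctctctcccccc
TRPM8, chr2:233917123-233917372, plus strand: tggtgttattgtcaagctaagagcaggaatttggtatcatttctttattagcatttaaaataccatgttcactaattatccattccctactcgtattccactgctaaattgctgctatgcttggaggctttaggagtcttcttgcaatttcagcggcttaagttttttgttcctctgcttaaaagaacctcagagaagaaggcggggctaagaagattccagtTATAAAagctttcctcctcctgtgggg
ACPP, chr3:132317157-132317406, plus strand: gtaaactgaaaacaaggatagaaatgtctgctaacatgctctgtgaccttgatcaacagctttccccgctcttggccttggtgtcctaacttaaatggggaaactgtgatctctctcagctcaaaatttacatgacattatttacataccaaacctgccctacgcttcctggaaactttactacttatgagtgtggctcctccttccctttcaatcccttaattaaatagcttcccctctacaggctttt
TATAAA, searched on both strands, was found in TRPM8, 27 bases before the start, and in none of the other 4, and 10.7% of 35116 promoters of the same length held it. The androgen hexamer AGAACA, on either strand, was in none of the 5, against 12.4% of all promoters. The inverted pair AGAACA and TGTTCT with 3 bases between them, which overlaps the hexamer search, was in none of the 5 and in 0.00285% of all promoters. The G and C content of the windows was 40.0% in TRPM8 and 42.0% in ACPP, and 69.2% in SLC45A3, 67.6% in TMEFF2 and 80.8% in CD276, with a median over all promoters of 58%.

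Among the counts on these genes, FOLH1 led in vehicle-treated LNCaP, SLC45A3 and FOLH1 in androgen-treated LNCaP, and CD276 in PC3. Summed over the 8 genes, TMM-scaled CPM was 39.8 to 47.8 in PC3, 1524 to 1652 in vehicle-treated and 2604 to 2795 in androgen-treated LNCaP, and the 3 ranges did not overlap. FOLH1 took 80.3% to 81.4% of the members' counts in vehicle-treated LNCaP and 37.5% to 40.6% in androgen-treated LNCaP. SLC45A3 took 4.75% to 5.08% of them with vehicle and 47.0% to 50.2% with androgen. CD276 took 8.18% to 9.43% with vehicle and 4.32% to 4.93% with androgen, and made up 63.5% to 65.4% in PC3, where SLC45A3 made up most of the remainder at 30.2% to 31.3%.

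**Figure D1:**
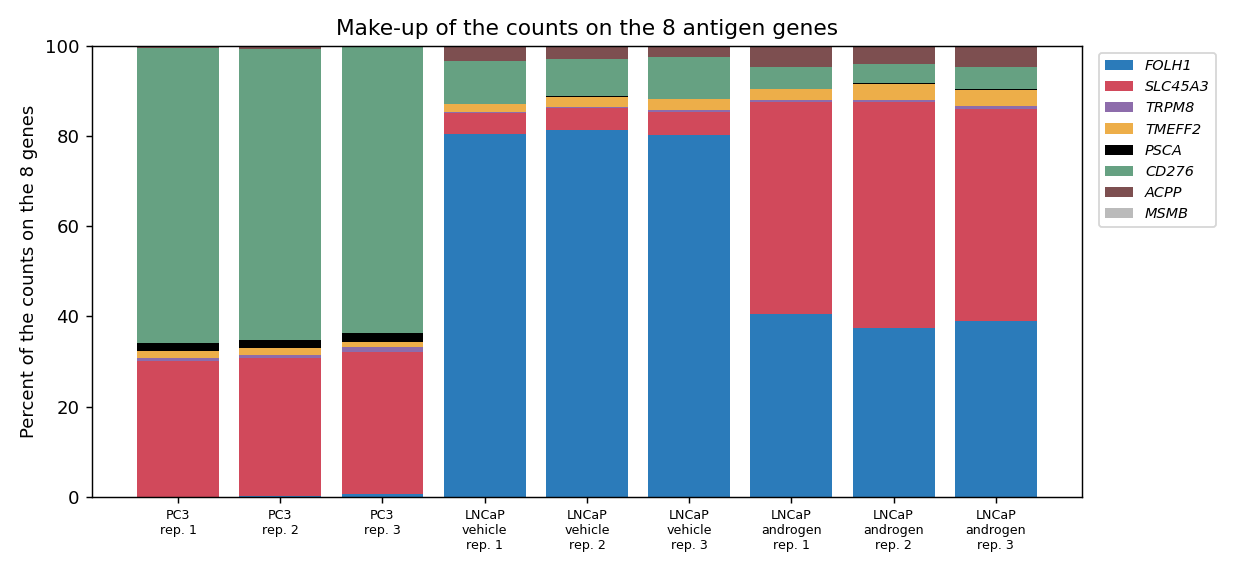
Each bar is 1 library, and the coloured parts are the percent of the counts on the 8 antigen genes that fell on each gene, not corrected for length. FOLH1 took at least 80.3% with vehicle and at most 40.6% with androgen, and CD276 took at least 63.5% in PC3.

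Per kilobase of the reference transcript, the order of the levels changed between groups. In vehicle-treated LNCaP, FOLH1 stood highest at 311 ± 14.9 CPM per kb (SD, n = 3), 166th of 18948 genes with a known length, followed by CD276 at 42.8 ± 1.98 and SLC45A3 at 22.9 ± 0.970 CPM per kb. ACPP at 14.6 ± 2.44 and TMEFF2 at 11.6 ± 2.35 CPM per kb came next, and their libraries overlapped. PSCA at 2.76 ± 0.333, TRPM8 at 0.778 ± 0.00377 and MSMB at 0.495 ± 0.267 CPM per kb were the lowest, and no MSMB library reached the TRPM8 libraries. In androgen-treated LNCaP, SLC45A3 was first at 383 ± 27.1 CPM per kb, 178th of 18948, and FOLH1 second at 256 ± 9.47 CPM per kb, 272nd. CD276 at 38.3 ± 1.81, ACPP at 36.9 ± 2.60 and TMEFF2 at 30.2 ± 7.73 CPM per kb followed, and neighbours in this order overlapped between libraries while CD276 and TMEFF2 did not. PSCA at 3.61 ± 0.620, MSMB at 2.95 ± 0.604 and TRPM8 at 2.40 ± 0.303 CPM per kb were the lowest, and again neighbours overlapped while PSCA and TRPM8 did not. In PC3, CD276 led at 8.45 ± 0.793 CPM per kb, SLC45A3 followed at 3.92 ± 0.392 and PSCA at 0.816 ± 0.0933, and the other 5 were at or below 0.213 CPM per kb.

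**Figure D2:**
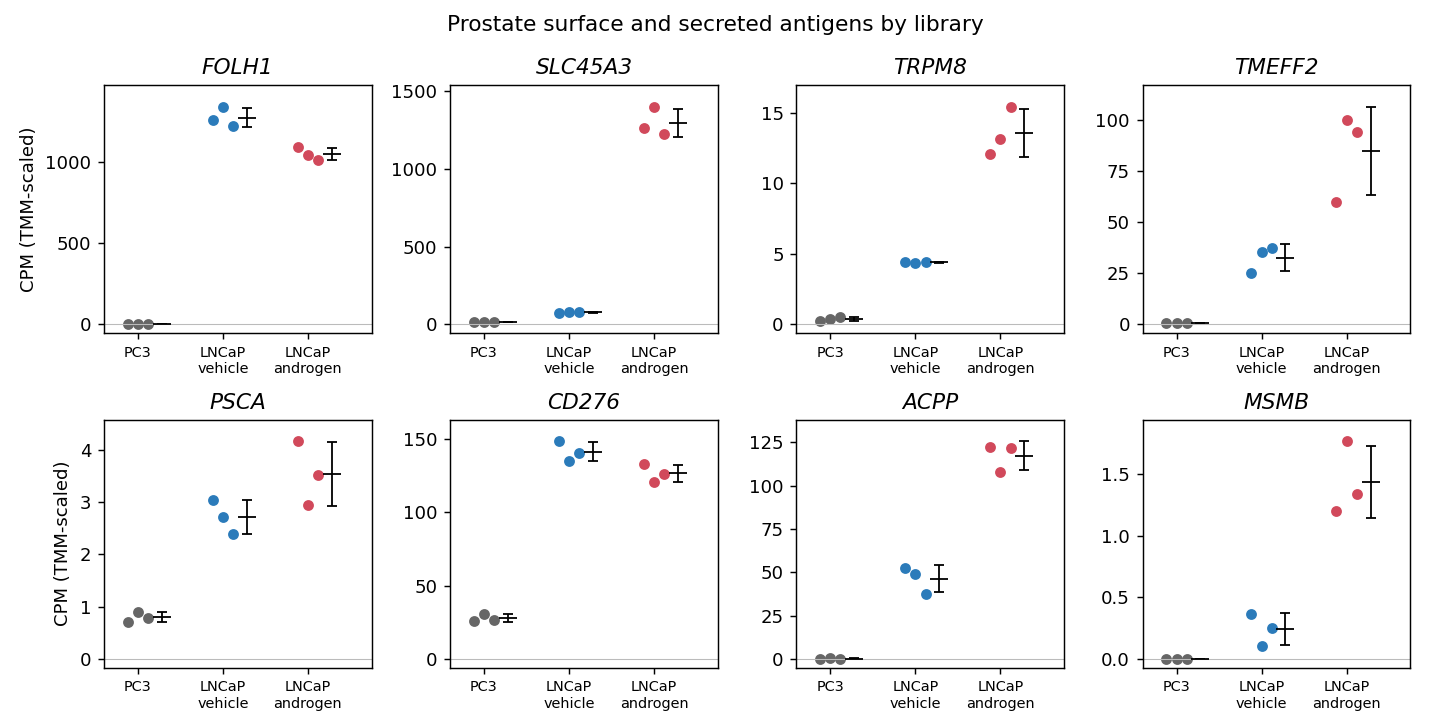
Each panel shows 1 gene, each point 1 library in TMM-scaled CPM on a linear axis that differs between panels, and each black mark the mean with its SD (n = 3). SLC45A3, TRPM8, TMEFF2, ACPP and MSMB were higher with androgen in all libraries, FOLH1 and CD276 lower, and PSCA overlapped.

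The first comparison asked how 48 h of androgen changed the antigens within LNCaP. SLC45A3 rose most, TRPM8, TMEFF2 and ACPP rose by a smaller factor, and FOLH1 and CD276 declined by less than the threshold of 2-fold. A gene was called when edgeR's quasi-likelihood test gave an adjusted p below 0.05 over all genes tested, those with more than 3 CPM in at least 3 libraries, and it differed by 2-fold or more. Of the 8 members 7 could be tested, and 4 were called higher, 0 lower and 3 not called. Among all 11697 genes tested, 14.0% were called in either direction and 6.54% were called higher with androgen. The members' median log2 fold change was 1.31, beside -0.01 over all genes tested. The numbered libraries of the androgen and vehicle groups deviated together, so folds per numbered pair are given as well.

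SLC45A3 encodes a membrane transporter of the prostate secretory cell. It had 27387, 28585 and 24694 counts in the androgen-treated libraries and 1425, 1521 and 1561 counts in the vehicle-treated ones. Every androgen library was far above every vehicle library, by 15.8- to 17.3-fold within the numbered pairs. The log2 fold change was 4.03 ± 0.0623 (SE, adjusted p = 3.81e-14, edgeR), the 64th highest of the 11697 genes tested.

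TRPM8 is a cation channel opened by cold and menthol, and was sparsely expressed. It had 262, 268 and 311 counts with androgen and 84, 82 and 89 with vehicle. The groups were well apart, and TRPM8 rose by a log2 fold change of 1.59 ± 0.12 (SE, adjusted p = 8.12e-08, edgeR), or 2.76- to 3.50-fold within pairs.

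TMEFF2 encodes a transmembrane protein with EGF-like and follistatin-like domains. Its counts were 1296, 2038 and 1895 with androgen and 477, 664 and 747 with vehicle. Replicate 1 was the lowest library of both groups, at 59.9 and 25.0 CPM, so the within-pair folds of 2.40, 2.82 and 2.54 varied less than the levels. The log2 fold change was 1.35 ± 0.18 (SE, adjusted p = 1.71e-05, edgeR).

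ACPP, the secreted acid phosphatase that served as an early serum marker of prostate cancer, had 2639, 2195 and 2454 counts with androgen and 1001, 916 and 757 with vehicle. All androgen libraries exceeded all vehicle libraries, and ACPP rose by a log2 fold change of 1.31 ± 0.0895 (SE, adjusted p = 2.27e-08, edgeR). Within pairs the fold was 2.33, 2.20 and 3.25.

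MSMB, the small secreted protein beta-microseminoprotein, stayed under the filter. It had 26, 36 and 27 counts with androgen and 7, 2 and 5 with vehicle. The groups did not overlap, yet the vehicle counts were so few that the within-pair folds ran from 3.28 to 16.5. In the fit without the filter, where 14.4% of 20429 genes were called, the log2 fold change of MSMB was 2.53 ± 0.39 (SE, adjusted p = 3.95e-06, edgeR).

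FOLH1 went the other way, and the change was small beside its level. It had 23643, 21356 and 20441 counts with androgen, or 1093, 1047 and 1015 CPM. With vehicle it had 24122, 25204 and 24683 counts, or 1262, 1344 and 1225 CPM. The androgen libraries were all below the vehicle libraries once scaled, at 0.866, 0.779 and 0.829 of their paired level. The log2 fold change was -0.31 ± 0.0429 (SE), and its adjusted p of 2.24e-05 (edgeR) passed while the fold did not, so FOLH1 was not called.

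CD276 (B7-H3), a member of the B7 family of immune regulatory ligands, had 2868, 2461 and 2532 counts with androgen and 2829, 2532 and 2831 with vehicle. In scaled units the groups just separated, at 121 to 133 CPM with androgen and 135 to 148 CPM with vehicle. The paired ratios of 0.896, 0.893 and 0.895 were nearly equal, and the log2 fold change was -0.19 ± 0.0422 (SE, adjusted p = 0.00121, edgeR), which was not called. Under an adjusted p alone 74.9% of the genes tested would pass, so the passing p-values of FOLH1 and CD276 were common in this comparison.

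PSCA, a small glycosylphosphatidylinositol-anchored protein of the Ly6 family, was the 1 tested member that passed neither threshold. It had 90, 60 and 71 counts with androgen and 58, 51 and 48 with vehicle, and the scaled groups overlapped. The log2 fold change was 0.36 ± 0.17 (SE, adjusted p = 0.068, edgeR), with PSCA higher in 3 of 3 pairs, by 1.37-, 1.08- and 1.48-fold. In 6 of the 7 members tested, and in MSMB, the groups did not overlap, beside 76.8% of all genes tested, so separation of the groups alone was common.

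**Figure D3:**
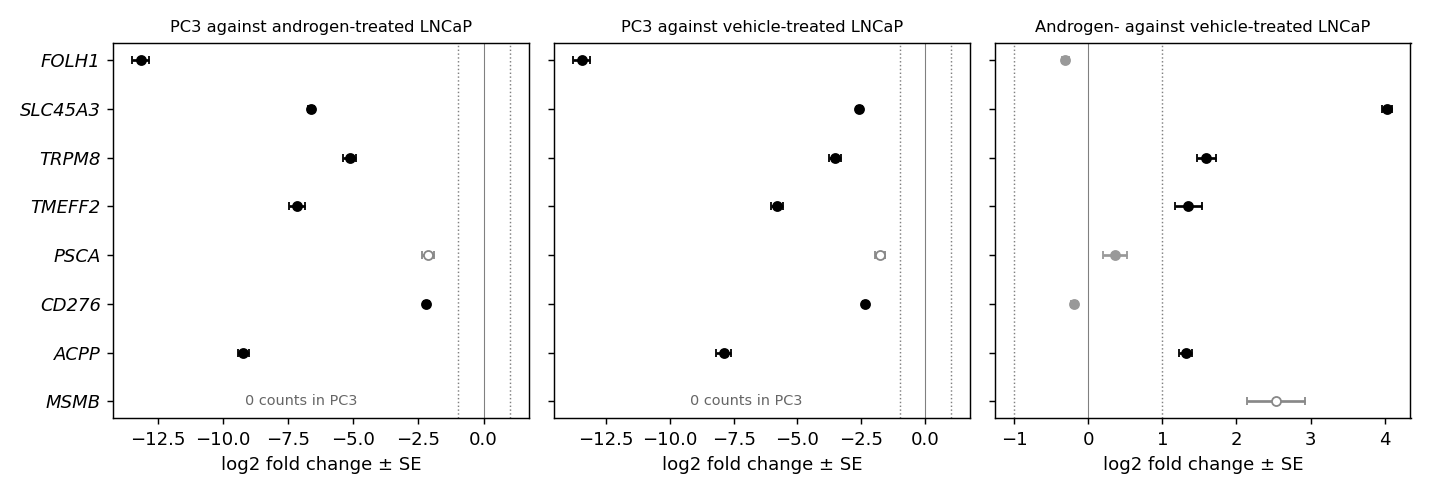
The 3 panels give the log2 fold change with its SE for each comparison. Filled black points were called, filled grey points tested and not called, open points come from the fit without the filter, and dotted lines mark 2-fold. With androgen, SLC45A3 stood apart at 4.03, and in both PC3 panels FOLH1 lay lowest at -13.16 and -13.45.

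The second comparison set PC3 against LNCaP under both conditions. All members were lower in PC3, FOLH1 and ACPP being nearly undetected, and CD276 and PSCA differing least. Both comparisons use the same PC3 libraries, so their values are given side by side and not as separate support. Against androgen-treated LNCaP 6 members were tested and 6 called lower, beside 46.0% of 12541 genes called in either direction and 22.1% called lower in PC3. Against vehicle-treated LNCaP 6 were tested and 6 called lower, beside 43.2% of 12686 genes called and 21.0% called lower. The 6 tested members passed the filter through LNCaP and, for FOLH1, TRPM8, TMEFF2 and ACPP, through LNCaP only. The members' median log2 fold change was -6.89 against androgen-treated and -4.65 against vehicle-treated LNCaP, with medians of 0.04 and 0.03 over all genes tested. The PC3 libraries lay below the LNCaP libraries without overlap for the 6 tested members in both comparisons. Groups did not overlap for 86.2% and 85.5% of the genes tested. PSCA and MSMB, not tested, were also below in scaled CPM. For MSMB against vehicle this separation is uncertain, since 1 vehicle library had 2 counts, under the limit of 3 counts.

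FOLH1 had 0, 1 and 7 counts in PC3. Its log2 fold change was -13.16 ± 0.32 (SE, adjusted p = 2.43e-08, edgeR) against androgen-treated LNCaP, the 24th lowest of the genes tested, and -13.45 ± 0.32 (SE, adjusted p = 2.44e-08, edgeR) against vehicle-treated LNCaP, the 12th lowest. The size rests on PC3 replicate 3, which also held 20 counts of KLK3 where the other PC3 libraries had 2 each. KLK2 was at 0 in all 3 PC3 libraries. It was also lower than KLK3 in LNCaP, at 699 against 4261 CPM with androgen and 38.1 against 563 CPM with vehicle. The source of the replicate 3 counts was not tested. Without replicate 3 PC3 is at or under the limit of 3 counts, and FOLH1 was at least 8265-fold lower than with androgen and at least 10036-fold lower than with vehicle. These limits describe PC3 replicates 1 and 2 and do not cover replicate 3, at 0.276 CPM.

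ACPP had 4, 8 and 2 counts in PC3, all near the counting limit. The log2 fold changes were -9.22 ± 0.22 (SE, adjusted p = 2.29e-08, edgeR) against androgen-treated and -7.88 ± 0.29 (SE, adjusted p = 1.52e-07, edgeR) against vehicle-treated LNCaP. Without PC3 replicate 2 they were -9.88 and -8.56. MSMB had 0 counts in every PC3 library and was at least 11.6-fold lower there than in androgen-treated LNCaP. Against its 14 counts summed over the vehicle libraries no fold is given.

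TMEFF2 had 16, 15 and 12 counts in PC3 and TRPM8 had 6, 8 and 14. TMEFF2 differed by -7.16 ± 0.29 and -5.79 ± 0.24 on the log2 scale (SE) against androgen- and vehicle-treated LNCaP, and TRPM8 by -5.13 ± 0.25 and -3.52 ± 0.23. SLC45A3 was lower by less when the vehicle group was the reference, since its level there was itself low. Its 301, 326 and 335 counts in PC3 gave log2 fold changes of -6.62 ± 0.12 (adjusted p = 1.14e-08, edgeR) and -2.57 ± 0.0902 (adjusted p = 1.11e-07, edgeR), with the SE.

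CD276 was the best retained of the tested members in PC3. Its 652, 686 and 679 counts there, 27.9 ± 2.61 CPM (SD, n = 3), stood against 126 ± 5.97 CPM with androgen and 141 ± 6.52 CPM with vehicle. The log2 fold changes were -2.19 ± 0.0818 and -2.36 ± 0.081 (SE), equal to 4.58- and 5.15-fold. PSCA, with 18, 20 and 20 counts in PC3, was under the filter in both comparisons. Without the filter, where 42.9% of 21303 and 41.0% of 21238 genes were called, PSCA had log2 fold changes of -2.14 ± 0.22 (SE, adjusted p = 7.63e-06, edgeR) and -1.77 ± 0.21 (SE, adjusted p = 3.74e-05, edgeR).

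**Figure D4:**
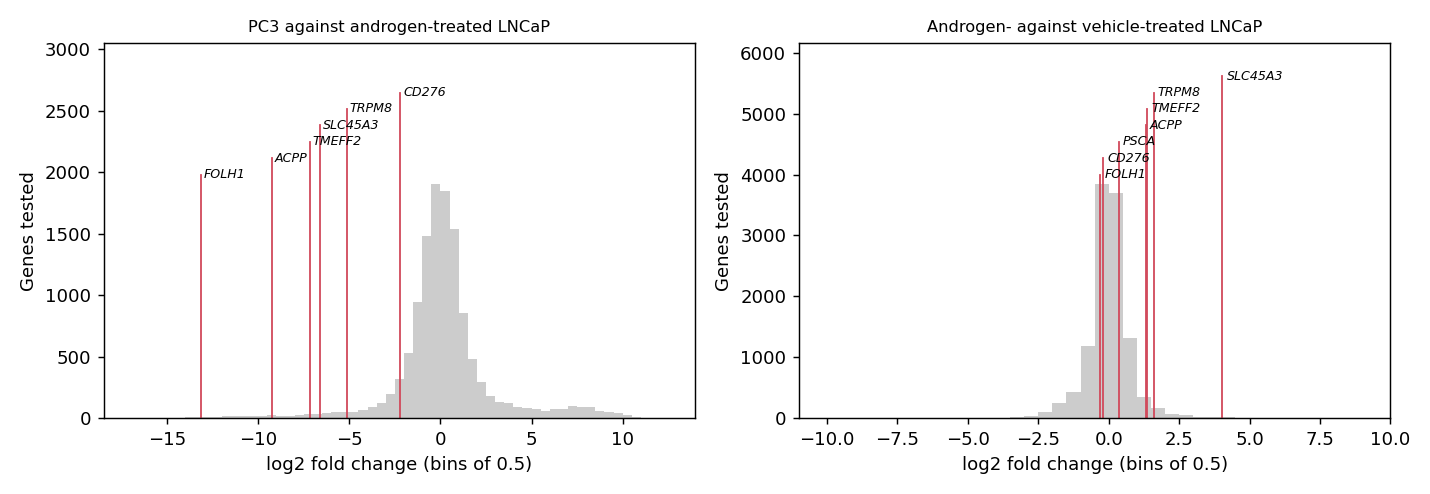
Grey bars count all genes tested by log2 fold change in bins of 0.5, and red lines mark the tested members. Against androgen-treated LNCaP the 6 members lay between -13.16 and -2.19 in PC3, and with androgen 3 lay close to 0 and 4 between 1.31 and 4.03.

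Reads of some members could also map to other genes. In GRCh38 FOLH1 spans chr11:49145092-49208638 on the minus strand and has a near-identical partner, FOLH1B. Of the 5721 stretches of 74 bases, the read length, in FOLH1 transcripts, 19.4% also occurred elsewhere, and 774 of them were shared with FOLH1B. FOLH1B had 0 counts in PC3, 10, 14 and 19 with androgen and 28, 28 and 22 with vehicle, at most 0.116% of the reads on both genes. The counts of FOLH1B are uncertain for this reason, and those of FOLH1 are to the extent of its own such stretches. With androgen the CPM of SLC45A3 was 1.16 to 1.34 times that of FOLH1. The part of such stretches in this ratio was not tested. PSCA at chr8:142670308-142682725 overlaps JRK on the opposite strand, which shared 10.4% of its stretches, and the counts used the strand of the gene. SLC45A3, TMEFF2, ACPP and MSMB had no stretch that occurred elsewhere, and the share was 0.585% in TRPM8 and 0.936% in CD276.

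Close relatives of the members did not share one response. Among the peptidase relatives of FOLH1, NAALAD2 fell with androgen, from 138, 133 and 154 counts to 20, 30 and 32 (log2 fold change -2.49 ± 0.18, SE, adjusted p = 3.08e-08, edgeR), and had 0 counts in PC3. NAALADL2 was not called with androgen (-0.70 ± 0.0601, SE) and was lower in PC3 by -3.53 and -4.21 on the log2 scale against androgen- and vehicle-treated LNCaP. Among the transporters related to SLC45A3, SLC45A1 rose with androgen, from 23, 19 and 22 counts to 102, 104 and 94 (log2 fold change 2.09 ± 0.16, SE, adjusted p = 9.61e-08, edgeR), and SLC45A4 was not called (0.69 ± 0.0779, SE). In PC3, SLC45A1 was called higher against vehicle-treated LNCaP (2.34) and not called against androgen-treated LNCaP (0.22), and SLC45A4 was called in neither (0.41 and -0.30). For androgen, SLC45A1 passed the filter through the androgen-treated libraries only, and NAALAD2 through the vehicle libraries only. Against vehicle-treated LNCaP, SLC45A1 passed it through PC3 only. NAALADL1, with at most 2 counts in any library, and SLC45A2, with at most 28, were under the filter.

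Of the TRPM channels, TRPM4, a calcium-activated channel, was called with TRPM8. It had 6744, 5782 and 5477 counts with androgen, 1907, 1970 and 1818 with vehicle and 874, 774 and 1065 in PC3. TRPM4 rose with androgen by 1.53 ± 0.0573 on the log2 scale (SE, adjusted p = 7.39e-11, edgeR) and was lower in PC3 by -2.97 and -1.42. TRPM2 and TRPM7 were not called with androgen, at 0.96 and 0.68. In PC3, TRPM2 was called lower against androgen-treated LNCaP (-1.81) and not called against vehicle (-0.83), and TRPM7 was called in neither (-0.76 and -0.05). TRPM1, TRPM3, TRPM5 and TRPM6 had at most 10 counts in any library.

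Of the Ly6 relatives of PSCA, 0 of 3 tested were called with androgen, beside 14.0% of all genes tested. In PC3, CD59, an inhibitor of complement, was higher by 3.45 and 3.44 on the log2 scale, LYNX1 lower by -7.37 and -6.76, and LY6E and LYPD3 not called, at 0.67 and 0.47 and at 0.59 and 0.46. LY6D, LY6H, LY6K, LYPD2 and SLURP1 had at most 16 counts in any library. Of the acid phosphatases, ACP2 and ACP6 were not called with androgen (0.96 and 0.33), and ACP6 was higher in PC3 by 2.35 and 2.70. ACP2 was lower in PC3 against androgen-treated LNCaP (-1.22) and not called against vehicle (-0.24). ACP4 had at most 7 counts in any library. MSMP, a secreted relative of MSMB, showed the opposite distribution, with 68568, 52647 and 82446 counts in PC3. In LNCaP it had 185, 6 and 6 counts with androgen and 117, 2 and 13 with vehicle, the replicate 1 libraries being the highest of both groups, and it was called higher in PC3 in both comparisons. In both PC3 comparisons LYNX1 passed the filter through LNCaP only, and MSMP through PC3. TMEFF1, the relative of TMEFF2, had at most 1 count in any library.

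Within the B7 family, CD274 (PD-L1) fell with androgen where CD276 was not called. It had 128, 124 and 166 counts with androgen and 339, 274 and 314 with vehicle (log2 fold change -1.27 ± 0.13, SE, adjusted p = 9.95e-07, edgeR). In PC3 its 46, 69 and 33 counts gave -1.72 and -2.98. NCR3LG1 was not called with androgen (-0.85) and was lower in PC3 by -1.36 and -2.19. VSIR, another member of the family, was higher in PC3, with 397, 282 and 411 counts there and at most 9 in any LNCaP library. In both PC3 comparisons CD274 and NCR3LG1 passed the filter through LNCaP, and VSIR through PC3 only. CD80, CD86, PDCD1LG2, ICOSLG, VTCN1 and HHLA2 were under the filter in every comparison, with at most 20 counts in any PC3 library and 4 in any LNCaP library.

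Of 15 other surface antigens used as tumour markers or targets, 12 were tested for androgen, and 2 were called higher and 0 lower. Among all genes tested, 14.0% were called and 6.54% were called higher. TMPRSS2, a membrane serine protease, rose by 3.45 ± 0.0773 and the transporter SLC44A4 by 1.90 ± 0.0865 on the log2 scale (SE), and the list's median was 0.20. In PC3 against androgen-treated LNCaP 14 were tested, 3 called higher and 9 lower, with a median of -3.34. Of all genes tested there, 46.0% were called and 22.1% were called lower in PC3. MUC1 (1.35) and PTK7 (1.08) were among the higher, and the largest falls were HPN, at least 1232-fold lower, TRPV6, at least 166-fold lower, and SLC44A4, 512-fold lower. Against vehicle-treated LNCaP 2 were higher, MUC1 (2.17) among them, and 9 lower, with HPN at least 832-fold, TRPV6 at least 181-fold and SLC44A4 (-7.08) at the head. The shares over all genes were 43.2% called and 21.0% called lower in PC3. HPN, TRPV6 and SLC44A4 passed the filter through LNCaP only, and MUC1 through PC3 only, in both comparisons.

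Of 16 other secreted products of the prostate, 6 were tested for androgen, and 5 rose and 0 fell, with a median log2 fold change of 3.24. Among all genes tested, 6.54% were called higher with androgen. ORM1, an acute-phase plasma protein, rose from 4, 0 and 1 counts to 378, 438 and 489. It passed the filter through the androgen-treated libraries only. KLK2 rose by 4.17 and AZGP1 by 3.59 on the log2 scale, while CLU was not called at 0.28. Against androgen-treated LNCaP 1 of 6 was higher in PC3, the chaperone CLU (2.13), and 5 were lower, beside 22.1% of all genes tested. The 5 lower genes passed the filter through LNCaP only. The median of the 6 was -12.55 as fitted and -11.21 with the genes at or under 3 counts in PC3 set to their limits. KLK2 was at least 5629-fold lower, AZGP1 at least 2483-fold lower and KLK3 lower by -13.65. The KLK3 value rests on the 20 counts, or 0.787 CPM, of PC3 replicate 3. Without that library KLK3 was at least 33485-fold lower than with androgen and at least 4424-fold lower than with vehicle. These limits describe PC3 replicates 1 and 2 only, and the fit over all libraries gave 12839-fold and 1707-fold. Against vehicle-treated LNCaP 5 were tested, 1 higher (CLU, 2.42) and 4 lower, KLK2 by at least 307-fold, AZGP1 by at least 202-fold and KLK3 at -10.74. The 4 lower genes again passed the filter through LNCaP only, and 21.0% of all genes tested were called lower in PC3.

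The genes most like each member were those with the smallest root mean square difference of centred log2 CPM over the 9 libraries, among 12843 genes. Since the 9 libraries form 3 groups, this measure mainly compares 3 group levels, and it is given as a description. FOLH1 was closest to MME at 0.42, another membrane metallopeptidase, with 0.932 CPM in PC3, 2010 CPM with vehicle and 1773 CPM with androgen. SPON2 and PRUNE2 followed at 0.62 and 0.70. Unlike FOLH1, both were higher with androgen than with vehicle, at 1258 against 607 CPM and 500 against 368 CPM. SLC45A3 was closest to HERC3 (0.20), IQGAP2 (0.23) and ADAM7 (0.29), and TRPM8 to CREB3L4 (0.16), SLC2A12 (0.18) and ALPK3 (0.19). TMEFF2 was closest to BEND4 (0.33), IL1R1 (0.36) and ARSG (0.36), and ACPP to GUCY1A1 (0.14) and GPR158 (0.28). CD276 lay near TMEM68 (0.04), UNKL (0.06) and TRIM23 (0.08), and PSCA near GNB4 (0.098), CLCC1 (0.099) and TOR1AIP2 (0.10). Among the members themselves the nearest pairs were PSCA with CD276 at 0.43 and TMEFF2 with ACPP at 0.65, and the farthest was FOLH1 with PSCA at 4.47.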

How the data were processed

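Poly(A) RNA of PC3 and LNCaP cells was sequenced as 74-nt single-end reads with molecular identifiers. The authors deposited raw counts per gene, made by trimming (cutadapt 4.1), alignment to GRCh38 (STAR 2.7.7a) and removal of duplicates (UMI-tools 1.1.2) according to the submitters' processing notes. The study's supplement gives other versions of cutadapt and STAR. All 253944 values of the table equalled the gene-strand column of the per-library output, with 0 columns of the table unused.

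Libraries were grouped by their labels, 3 per group. The 6 libraries of a comparison alone entered its fit, made with edgeR 4.0.16 (R 4.3.3), TMM scaling and the quasi-likelihood F test, on genes with more than 3 CPM in at least 3 libraries. Benjamini-Hochberg adjustment covered all genes tested, and a call needed a 2-fold difference or more together with an adjusted p below 0.05. The SE of a log2 fold change is its size divided by the square root of F. DESeq2 1.42.0 was an alternative. The study's batch term was not used because its text does not name the batches. Tested on simulated counts, the fit recovered 193 of 200 changed genes in the comparison of PC3 with androgen-treated LNCaP over 12157 genes, with 4 false calls.

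Same-numbered androgen and vehicle libraries deviated together over 11975 genes (r = 0.187, 0.211 and 0.185), so the numbers were taken to pair them. Differently numbered libraries of these 2 groups gave r from -0.230 to 0.040. Differently numbered PC3 and LNCaP libraries reached r = 0.150, not far below the values of the pairs. This pairing comes from the data, not from the labels, and is uncertain.

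All 8 members are named in every comparison. Relatives and the B7 family are named, those under the filter by their highest count, and of the other lists the 3 largest called rises and falls. The 3 genes nearest in pattern used log2 of CPM + 0.5. Some genes that these rules select are not reported here. Members and lists were chosen with earlier results of these data known. Lengths are those of MANE Select transcripts, known for 67.2% of the symbols.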

Additional observations from a re-analysis of the deposited data

Results flagged for a closer look

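Counts on the strand opposite to a gene were not used in any comparison. For SLC45A3 they summed to 496 over the androgen-treated libraries, 141 to 178 per library and 0.611% of the reads of both strands, beside 66 with vehicle, 18 to 26 per library and 1.44%. For TMEFF2 they summed to 19 with androgen, 6 to 7 per library and 0.362%, beside 8 with vehicle, 1 to 4 per library and 0.422%. Both were marked because the count was higher with androgen than in the vehicle libraries. As a share of both strands neither was higher, and 2.33% to 3.06% of all gene reads per library lay on the other strand. Groups of 3 libraries were not tested for single extreme values.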

How the results depend on the processing

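All called members kept their direction and their call under every alternative that tested them. With no filter on low counts 9147 genes were called for PC3 against androgen-treated LNCaP, 2941 for androgen against vehicle and 8713 for PC3 against vehicle-treated LNCaP, beside 5773, 1641 and 5485. With adjusted p alone the counts were 10530, 8763 and 10577, and FOLH1 (-0.31) and CD276 (-0.19) then also passed for androgen. Members called in the PC3 comparisons ranged from 4, where the requirement of at least 10 counts in every library removed FOLH1, TRPM8, ACPP and MSMB, to 8 without the filter, and with androgen from 4 to 6. Leaving out 1 library gave 5717 to 5830, 1601 to 1686 and 5415 to 5616 genes called, and 6, 4 and 6 members, keeping the genes tested with all libraries. The adjusted p of PSCA with androgen ranged from 0.0252 to 0.254. That of FOLH1 was highest, at 0.0481, in the edgeR fit of all 9 libraries. With the replicate block the same numbers of members were called, 6 for PC3 against androgen-treated LNCaP, where same-numbered libraries did not deviate together (r = -0.154 to 0.024, and -0.159 to 0.053 for PC3 against vehicle), and the block changed no member's call. Depth limits FOLH1, ACPP, TRPM8 and MSMB in PC3, each at 14 counts or fewer per library.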
